A study of Mus musculus with 12 samples.

Results

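Natural killer (NK) cell receptors of the lectin-like family and a pair of activating partners were followed in mouse splenocytes that had been kept for 9 days with tumour cells. The set holds 10 genes, chosen by symbol, out of 18193 genes that a probe set of the array names alone: Klrk1, Klrd1, Klrc1, Klrc2, Klre1, Klrg1, Klrb1c, Klrb1f, Ncr1 and Fcer1g. Together they have 13 probe sets, of which 2 name a second gene as well (Klrb1b with Klrb1c, and Klrc3 with Klrc2). All splenocytes came from DBA/2 mice aged 10 weeks and received interleukin-2 at 100 units/mL every 3 days, and all tumour cells were KLN-205, a murine lung line of squamous carcinoma, carrying a knockdown of SEMA3A. In the SEMA6A group the tumour cells also overexpressed SEMA6A, the SEMA3A group received purified protein at 10 µg/mL, the SEMA6A+SEMA3A group had both, and the control group had neither. Each group had 3 arrays, 12 in all. The labels name no separate cultures or animals for the replicates, so p-values measure only the spread between these samples, and no substrain of DBA/2 is given.

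NK cells weigh signals from activating and inhibitory surface receptors, many of them C-type lectin-like proteins encoded side by side in the NK gene complex. CD94, from Klrd1, pairs with NKG2A (Klrc1) to form an inhibitory receptor and with NKG2C (Klrc2) to form an activating one, both of which read the class Ib molecule Qa-1. NKG2D, from Klrk1, and the receptors NKp46 (Ncr1) and NKR-P1C (Klrb1c) activate through adaptor proteins, among them the FcRγ chain from Fcer1g. Cytotoxic T cells that have been activated also express several of these genes, so their RNA does not mark NK cells alone, and in bulk RNA fewer cells of a type and less RNA per cell cannot be told apart. By RefSeq's annotation of GRCm38.p6, an assembly made from C57BL/6J mice, 8 of the 10 genes lie on chromosome 6, and the 7 other than Klrg1 fall within chr6:128778485-129682852.

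Promoter windows of 300 bases, from 250 before to 50 after a listed start, were present in the RefSeq table for 8 of the 10 genes. Klrd1 and Klrg1 have no entry in it. Klrc2, Klre1 and Ncr1 have 2 windows each, of which only the first listed was used. The windows used for Klrc1 and Klre1 lie wholly inside the RefSeq span of the gene, so they do not mark its outer end. The windows were searched on both strands for the core letters TGTGGT of RUNX factors and for GGTGTGA of T-box factors, since Runx3, a RUNX factor of cytotoxic lymphocytes, had signals of 1400 to 2503 in this RNA and Eomes, a T-box factor of NK and memory T cells, had 6212 to 7489. The RUNX letters were found in 7 of the 8 windows (all but Klrb1f), against 16.9% of 27025 genes in the table with 1 window each. The T-box letters were found in 0 of 8, against 3.96%. Most of the 8 windows belong to related neighbours in the NK gene complex and are not independent of each other, so these shares were not tested. Such a match describes letters in a C57BL/6J sequence and is no measured binding. The windows of Klrc1 and Klrc2 are shown because these neighbours encode the inhibitory and the activating partner of CD94, Klrk1 because a single array stood apart, and Ncr1 because it holds a match on each strand. All are from GRCm38.p6 and printed 5′ to 3′ as the table gives them for the gene's own strand, with the RUNX letters, on either strand, in capitals. Klrc1 is at chr6:129678924-129679223 (minus strand), Klrc2 at chr6:129660547-129660846 (minus), Klrk1 at chr6:129623815-129624114 (minus) and Ncr1 at chr7:4337465-4337764 (plus).
Klrc1: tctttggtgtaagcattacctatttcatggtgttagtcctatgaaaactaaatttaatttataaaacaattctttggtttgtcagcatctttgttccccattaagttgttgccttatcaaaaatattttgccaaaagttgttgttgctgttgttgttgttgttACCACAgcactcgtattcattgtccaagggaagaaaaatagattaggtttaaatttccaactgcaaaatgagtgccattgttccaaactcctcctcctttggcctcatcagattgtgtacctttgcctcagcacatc
Klrc2: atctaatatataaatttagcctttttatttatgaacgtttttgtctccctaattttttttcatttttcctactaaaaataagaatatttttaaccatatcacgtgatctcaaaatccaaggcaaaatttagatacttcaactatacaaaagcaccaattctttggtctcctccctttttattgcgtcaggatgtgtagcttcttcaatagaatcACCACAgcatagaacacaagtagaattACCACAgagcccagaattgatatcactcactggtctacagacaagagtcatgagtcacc
Klrk1: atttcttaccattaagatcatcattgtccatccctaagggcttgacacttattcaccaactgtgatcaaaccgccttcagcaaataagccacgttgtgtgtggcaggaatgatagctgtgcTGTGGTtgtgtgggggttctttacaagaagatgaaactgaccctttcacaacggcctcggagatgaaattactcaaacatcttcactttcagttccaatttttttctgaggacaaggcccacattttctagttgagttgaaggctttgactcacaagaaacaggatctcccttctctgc
Ncr1: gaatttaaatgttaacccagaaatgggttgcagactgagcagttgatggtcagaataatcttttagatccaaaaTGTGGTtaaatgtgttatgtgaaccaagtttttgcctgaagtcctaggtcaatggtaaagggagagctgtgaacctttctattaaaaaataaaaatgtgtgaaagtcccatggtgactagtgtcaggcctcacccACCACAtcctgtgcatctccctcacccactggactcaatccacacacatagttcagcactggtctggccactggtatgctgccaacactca
Klrc1 and Klrk1 had 1 match each, and Klrc2 and Ncr1 had 2 each.

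Signals are MAS5 intensities on a linear scale, and a probe set was kept for testing when it lay above the median of its own array on at least 3 arrays. Of the 13 probe sets, 10 passed this filter. Probe sets differ in how they bind, so signals were compared between arrays and not between genes. A probe set is called dim or bright here only by its place in its own array. Array medians lay between 42.5 and 53.5. The 3′/5′ signal ratio of the Gapdh control probe sets, a measure of RNA integrity, was 1.22 on SEMA6A replicate 2 and 0.767 to 0.818 on the others. Among markers of other cells, all 9 neutrophil genes named on the array stayed below the filter, while Cd3d of T cells had 15896 to 23139. Of 9 B cell genes named on the array 4 passed the filter, with Ighm at 156 to 733 and Cd79b at 56.9 to 106, and Cd79a and Ms4a1 did not. Of 11 macrophage and monocyte genes 5 passed, with Ctss at 575 to 1277, Cd68 at 185 to 347 and Cd14 at 163 to 318, and Adgre1 and Lyz2 did not.

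**Figure D1:**
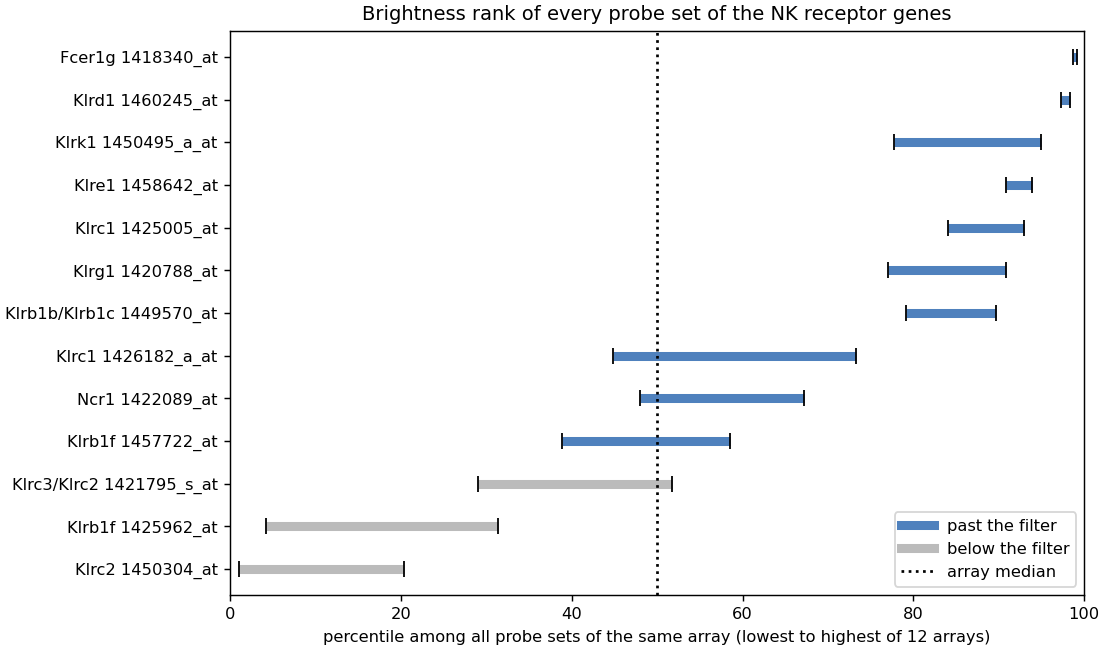
Rank of each of the 13 probe sets among all probe sets of the same array, as a percentile on the horizontal axis, drawn from the lowest to the highest of 12 arrays. Blue bars mark the 10 probe sets past the filter and grey bars the 3 below it, and the dotted line is the array median. Klrd1 stays between 97.3 and 98.4, while the probe set of Klrc2 alone stays between 1.05 and 20.4.

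Genes of the NK complex can be missing or altered in a strain, and the DBA/2J substrain is known to lack CD94 protein because of a deletion in Klrd1. Here the probe set of Klrd1 gave a high signal on every array. It read 8493, 6938 and 10370.5 on the SEMA6A arrays, 7808, 10691 and 9302 on the SEMA3A arrays, 10389.8, 10162 and 10835 on the SEMA6A+SEMA3A arrays, and 9522, 9026 and 8746.5 on the control arrays. A transcript that this probe set reads was thus measured in all 4 groups. The place of the probes along the transcript was not analysed here, so the signal does not tell whether the RNA is complete.

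Klrc2, the activating partner of CD94, gave no usable signal in any group. Its own probe set read between 0.511 and 8.10 over all 12 arrays and lay above the array median on 0 of them. The probe set shared by Klrc3 and Klrc2 read between 16.4 and 49.8 and lay above the median on 1 array. Both were low with and without either semaphorin, so the low signal is common to all groups and is no group effect. A gene missing from the strain, a variant that the probes do not match and a gene that is not transcribed cannot be told apart here, since all arrays are of DBA/2 RNA.

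Klrb1f, which encodes the NK receptor NKR-P1F, was dim as well. Of its 2 probe sets, one read at most 19.4 on every array and failed the filter. The other read 58.9, 87.4 and 59.7 on the SEMA6A arrays, 67.2, 34.3 and 45.4 on the SEMA3A arrays, 42.4, 53.0 and 25.1 on the SEMA6A+SEMA3A arrays, and 38.9, 49.5 and 54.9 on the control arrays. It lay above the array median on 7 of 12 arrays, so its values sit near the level that the filter calls dim. In MAS5 signal the 3 SEMA6A arrays lay above all 3 control arrays and all 3 SEMA6A+SEMA3A arrays, and the SEMA3A arrays overlapped every group. After normalization the SEMA6A and control arrays overlapped, and only the separation from the SEMA6A+SEMA3A arrays remained. In that comparison 14.1% of all genes separated in either direction.

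Klrb1c encodes NKR-P1C, whose NK1.1 epitope is known to be missing in DBA/2 mice. It has no probe set of its own on the array, and the one that names it also names the inhibitory receptor gene Klrb1b. This shared probe set was bright in all groups, above the array median on 12 of 12 arrays. It read 597, 1679.8 and 955 on the SEMA6A arrays, 1221, 957 and 812 on the SEMA3A arrays, 734, 574 and 628 on the SEMA6A+SEMA3A arrays, and 790.8, 558 and 628 on the control arrays. Every SEMA3A array lay above every control array, and among the SEMA6A arrays replicates 2 and 3 did so while replicate 1 did not. The brightest probe set that names Klrb1b alone read 29.1 to 107, with 106.8 on SEMA6A replicate 2 as its highest value. Which of both genes gave the shared signal cannot be told apart.

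Klrk1, encoding the activating receptor NKG2D, showed a single array far below the rest. It read 3251, 489 and 3696 on the SEMA6A arrays, 2037, 3809 and 2801 on the SEMA3A arrays, 2943, 2384 and 3494 on the SEMA6A+SEMA3A arrays, and 2279, 2901 and 2201 on the control arrays. The array at 489 was SEMA6A replicate 2, the one with the Gapdh ratio of 1.22, and the lowest of the other 11 arrays read 4.16 times as much. On the same array Cd8a, a coreceptor of cytotoxic T cells, read 495.8 in its brightest probe set, against 1968 to 4231 on the others. The transcription regulator gene Id2 read 6614, against 12318 to 19445. Lymphocyte genes went both ways there. Of the T cell markers, Cd3e at 6446, Cd28 at 3738 and Themis at 1440 were highest on this array. Cd3d at 15896, Cd8b1 at 1482, Cd6 at 34.1 and Ubash3a at 432.1 were lowest on it. The receptor gene Cd244a at 6139 and Runx3 at 2503 were highest on this array. Klrk1 in SEMA6A against control differed by -0.43 ± 0.55 on the log2 scale (SE; adjusted p by limma = 0.75), and without SEMA6A replicate 2 at 0.50, the other direction. The part of RNA quality in this value was not tested.

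Klrc1, the inhibitory partner of CD94, was lower with either semaphorin alone on most arrays and not with both. Its brighter probe set read 1843, 910.3 and 1391 on the SEMA6A arrays, 930.4, 1151 and 2642 on the SEMA3A arrays, 1978, 2292 and 2196 on the SEMA6A+SEMA3A arrays, and 2646, 2138 and 2220.2 on the control arrays. All SEMA6A arrays lay below all control arrays, whereas SEMA3A replicate 3 was close to the highest control array. Group means were 1381 ± 467 in SEMA6A, 1575 ± 931 in SEMA3A, 2156 ± 161 in SEMA6A+SEMA3A and 2335 ± 273 in control (SD, n = 3 each). On the log2 scale the value was -0.80 ± 0.31 in SEMA6A against control (SE; limma adjusted p = 0.48) and -0.72 ± 0.31 in SEMA3A against control (limma adjusted p = 0.56). Neither passed the threshold of 0.05. The second probe set of Klrc1 read 234.8, 35.7 and 164 on the SEMA6A arrays, 104, 188.5 and 306 on the SEMA3A arrays, 184, 192.5 and 159.9 on the SEMA6A+SEMA3A arrays, and 262, 271.5 and 279 on the control arrays. It shared the low values on SEMA6A replicate 2 and SEMA3A replicate 1, and differed from the brighter one in that all SEMA6A+SEMA3A arrays stayed below all control arrays.

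Klrg1, an inhibitory receptor of differentiated NK and T cells that binds cadherins, ran the opposite way. It read 470.0, 1977 and 796 on the SEMA6A arrays, 1669, 824 and 671 on the SEMA3A arrays, 522, 619 and 439.7 on the SEMA6A+SEMA3A arrays, and 627, 465 and 639 on the control arrays. Every SEMA3A array lay above every control array, and SEMA6A replicate 1 was at the level of the control arrays. The replicates of the groups with a single semaphorin were spread widely, with means of 1081 ± 793 in SEMA6A and 1054 ± 538 in SEMA3A, against 527 ± 89.7 in SEMA6A+SEMA3A and 577 ± 96.8 in control (SD, n = 3 each).

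The same 4 arrays carried the low Klrc1 and the high Klrg1 and Klrb1b/Klrb1c signals: SEMA6A replicates 2 and 3 and SEMA3A replicates 1 and 2. These arrays also had the lowest signals of Clec2i, which encodes a lectin-like ligand of NKR-P1F, at 126.9 and 167.9 on the SEMA6A pair and 106.9 and 169.1 on the SEMA3A pair, against 296.4 to 361 on the others. Genes of other lists shared this pattern, so it was not confined to the receptors and their ligands. Prdm1, Runx3, Cd244a and Fcgr3 were highest, and Cd6 and Crtam lowest, on the same 4 arrays. Others, such as Eomes and Cd28, did not follow it, and the share of all genes that did was not counted. Among the 11 squamous carcinoma markers past the filter, 3 were highest on the same 4 arrays and the rest were not. The keratin gene Krt19 read 208.9 and 186.2 on the SEMA6A pair and 163.1 and 239.0 on the SEMA3A pair, with at most 76.8 elsewhere. Krt18, another keratin gene, read 124.6 and 101.0 on the SEMA6A pair and 84.4 and 121.4 on the SEMA3A pair, with at most 72.5 elsewhere. Lamb3, for a laminin chain, read 299.2 and 241.1 on the SEMA6A pair and 226.0 and 279.3 on the SEMA3A pair, with at most 220.2 elsewhere. Perp tended the other way, at 185.5 and 189.6 on the SEMA6A pair and 187.4 and 134.2 on the SEMA3A pair. It read 183.7 to 302.0 elsewhere. Krt8, Sfn and Dsp followed the 4 arrays in part. Krt8 read 146.5 and 127.5 on the SEMA6A pair and 71.6 and 146.9 on the SEMA3A pair, with 41.3 to 91.6 elsewhere. For Sfn these were 67.2 and 61.8, then 64.4 and 21.2, with 15.9 to 54.4 elsewhere. For Dsp they were 252.6 and 141.3, then 115.1 and 88.9, with 48.7 to 126.2 elsewhere. Krt5, Krt6a, Epcam and Cdh1 overlapped between the 4 arrays and the others. Tfrc, whose control probe sets give another 3′/5′ ratio, stood at 35.7 and 23.3 on the SEMA6A pair and 17.2 and 17.6 on the SEMA3A pair, with 18.1 on SEMA3A replicate 3 and 5.93 to 12.2 on the remaining arrays. The same ratio for Pcx did not follow the 4 arrays, at 15.5 and 10.3 on the SEMA6A pair and 6.66 and 6.90 on the SEMA3A pair, with 4.36 to 8.26 on the others. The part of tumour cell RNA or RNA quality in the receptor signals was not tested. For the whole list of 14 carcinoma markers, 11 passed the filter, and the summed signal was 2870.0 to 4329 on the SEMA6A arrays, 2689 to 3527 on the SEMA3A arrays, 2970 to 3368 on the SEMA6A+SEMA3A arrays and 2838 to 3385 on the control arrays. Krt14, Krt17 and Trp63 stayed below the filter.

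Whether SEMA6A acted differently with and without SEMA3A was asked with an interaction term, the SEMA6A difference where SEMA3A was present minus that where it was absent. The brighter probe set of Klrc1 was at 1.42 ± 0.44 on the log2 scale (SE; 95% interval 0.46 to 2.37; limma adjusted p = 0.20). The second probe set of Klrc1, from a fit over all 45037 probe sets, was at 1.11 ± 0.67, with an interval of -0.32 to 2.55 that holds 0 (limma adjusted p = 0.57). Klrg1 was at -1.53 ± 0.58 (interval -2.78 to -0.27; adjusted p = 0.22). The Klrb1b/Klrb1c probe set, from the fit over all probe sets, was at -1.18 ± 0.39 (interval -2.02 to -0.35; limma adjusted p = 0.36). No interaction passed: by limma 0 of 8 tested members had an adjusted p under 0.05, where the share over all 11325 genes was 0.0%. At an unadjusted p under 0.05 there were 2 of 8, against 18.0% of all genes. Klrd1, at 0.30 ± 0.18, Klre1, at 0.24 ± 0.20, and Fcer1g, at -0.20 ± 0.10, had narrower intervals that held 0, from -0.10 to 0.69, from -0.19 to 0.66 and from -0.42 to 0.02. Klrb1f was at -0.59 ± 0.37, Klrk1 at 0.48 ± 0.78 and Ncr1 at -0.22 ± 0.42.

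Single arrays decided the interaction call. Without SEMA6A replicate 1, whose Klrc1 and Klrg1 signals were the nearest in its group to those of the control arrays, Klrc1 was at 1.65 and Klrg1 at -1.97, and both passed (limma adjusted p = 0.0323 and 0.0291), as did 11.1% of all genes. The Klrb1b/Klrb1c probe set then was at -1.53 (limma adjusted p = 0.0424). Without SEMA3A replicate 3, Klrc1 was at 1.86 (limma adjusted p = 0.0325) and 2.28% of all genes passed. The second probe set of Klrc1 lay between 0.43 and 1.60 with single arrays left out and did not pass (limma adjusted p of 0.202 to 0.79). With weights for each array, estimated gene by gene, Klrc1 and Klrg1 passed at 1.49 and -1.30 (limma adjusted p = 0.00985 and 0.0320), beside 16.3% of all genes. When SEMA6A replicate 2 was left out, whose Gapdh ratio was 1.22, no member passed, with Klrc1 at 1.14 and Klrg1 at -0.98 (limma adjusted p = 0.27 and 0.31).

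**Figure D2:**
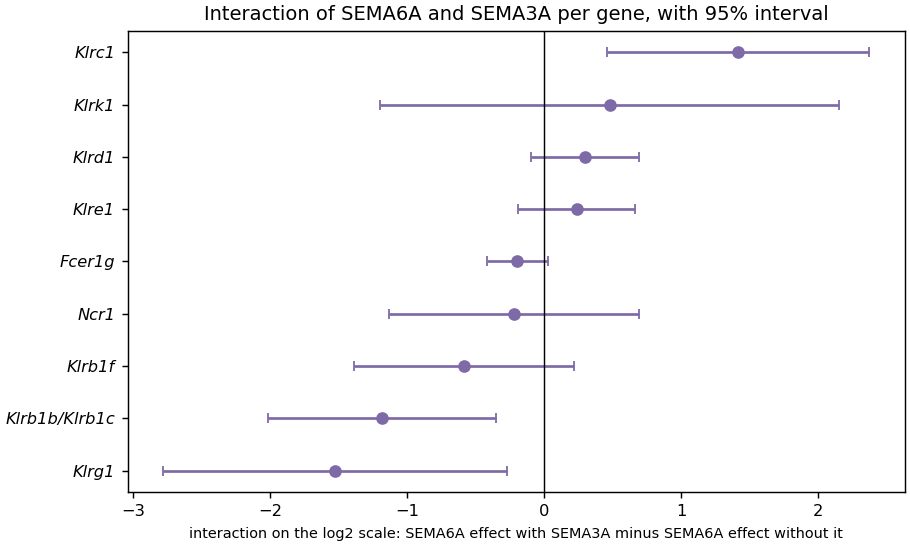
Interaction of SEMA6A and SEMA3A for the 8 tested members and the Klrb1b/Klrb1c probe set, on the log2 scale, as points with 95% intervals from the fits. Klrc1, at 1.42, lies furthest to the right and Klrg1, at -1.53, furthest to the left. None passed after adjustment over all features.

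Fcer1g, the FcRγ chain that carries signals of NKp46 and of Fc receptors, was high on every array and varied little. It read 13264, 14557 and 14583 on the SEMA6A arrays, 17939.8, 15948 and 15248 on the SEMA3A arrays, 14466, 15231 and 13428 on the SEMA6A+SEMA3A arrays, and 13476, 13258 and 14219.7 on the control arrays. All SEMA3A arrays lay above all control arrays and above all SEMA6A+SEMA3A arrays. The difference was small, at 0.23 ± 0.07 in SEMA3A against control (SE; limma adjusted p = 0.55) and -0.18 ± 0.07 in SEMA6A+SEMA3A against SEMA3A (limma adjusted p = 0.42). Mast cells and macrophages express Fcer1g too. The list of 12 mast cell and basophil markers had 5 tested members and a summed signal of 2713 to 4373 on the SEMA6A arrays, 3227 to 5752 on the SEMA3A arrays, 2863 to 3436 on the SEMA6A+SEMA3A arrays and 2770.0 to 3525 on the control arrays. All 5 lay above 0 in SEMA3A against control, with a median log2 difference of 0.38, and none passed. Kit, the stem cell factor receptor, had the smallest p, at 0.67 ± 0.19 (SE; limma adjusted p = 0.55). Mcpt8, a basophil protease gene, read 1817 to 4108 over the 12 arrays, Kit 377 to 890.0 and Cpa3, a mast cell protease gene, 298 to 527. Of the 5 tested, Mcpt8, Kit and Cma1 were highest on SEMA3A replicate 1, the array with the highest Fcer1g signal. Cpa3 was highest on SEMA6A replicate 2, at 527.3, and Gata2 on SEMA6A+SEMA3A replicate 2, at 98.2. Fcer1a and Ms4a2, for subunits of the IgE receptor, stayed at or below 27.0 and 32.0, below the filter. The part of these cells in the Fcer1g signal was not tested.

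Ncr1, which encodes NKp46 and is the member most confined to NK and innate lymphoid cells in mice, gave a low signal that exceeded the array median on 10 of 12 arrays. It read 40.0, 67.4 and 77.6 on the SEMA6A arrays, 180.0, 117 and 170.1 on the SEMA3A arrays, 80.8, 133 and 43.0 on the SEMA6A+SEMA3A arrays, and 82.0, 105.5 and 101.0 on the control arrays. All SEMA6A arrays lay below all control arrays and all SEMA3A arrays above them, while the SEMA6A+SEMA3A arrays reached past the controls on both sides. Averaged over both states of SEMA3A, the SEMA6A difference of Ncr1 was -0.71 ± 0.21 on the log2 scale (SE; limma adjusted p = 0.935, unadjusted p = 0.00499). In SEMA6A+SEMA3A against SEMA3A it was -0.82 ± 0.30 (limma adjusted p = 0.40). Neither passed, and at this signal the log2(signal + 16) scale understates differences. Itga2, another surface marker of NK cells, stayed below the filter at 2.44 to 42.1.

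Klre1, whose product is an NK lectin that pairs with the KLRI proteins in mice, and Klrd1 had the smallest SE of the interaction after Fcer1g. Klre1 read 2137, 1969.9 and 2461 on the SEMA6A arrays, 2114, 2095 and 3148 on the SEMA3A arrays, 2654, 2679 and 2833 on the SEMA6A+SEMA3A arrays, and 2499, 2205 and 2167 on the control arrays. For Klre1 and for Klrd1 every SEMA6A+SEMA3A array lay above every control array in normalized signal. In SEMA6A+SEMA3A against SEMA6A, Klre1 was at 0.32 ± 0.14 (limma adjusted p = 0.42), Klrd1 at 0.29 ± 0.13 and Klrc1 at 0.70 ± 0.31 (adjusted p = 0.43 each), and Klrb1f at -0.66 ± 0.26 (adjusted p = 0.42).

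**Figure D3:**
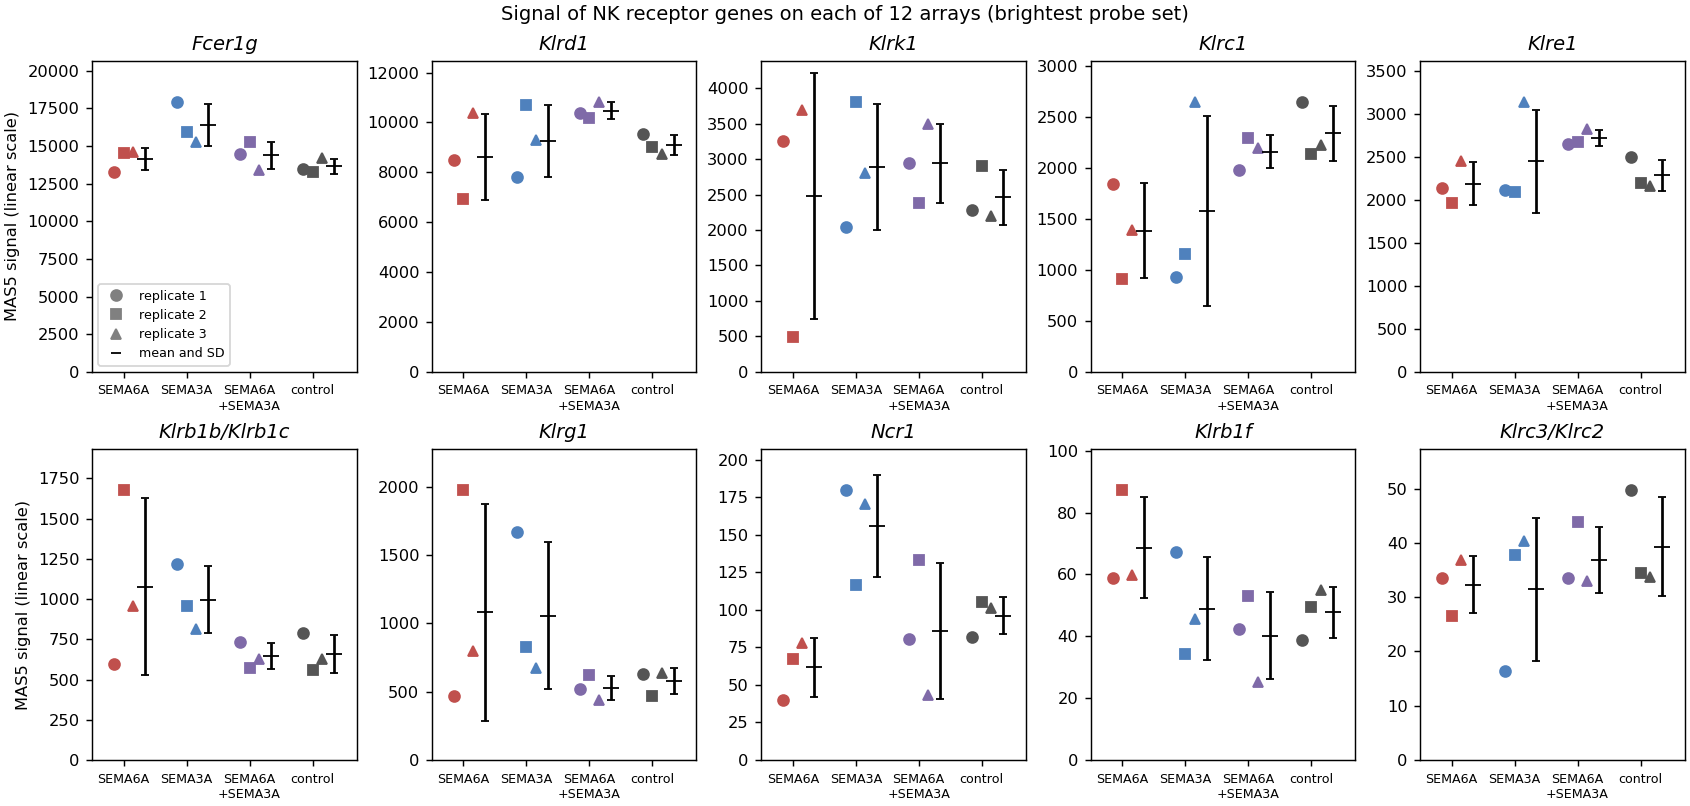
MAS5 signal on a linear scale on each of 12 arrays for the brightest probe set of each gene or gene pair, by group, with replicates by shape and the mean and SD of 3 arrays at the right of each group. The probe set of Klrc2 alone, the dimmest, is not drawn. Klrk1 shows 1 array at 489 in SEMA6A, Klrc1 is lower in SEMA6A than in control without overlap, and Ncr1, Klrb1f and Klrc3/Klrc2 stay at or below 180.0.

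Over all 8 comparisons, limma called 0 of the 8 tested members and 0.0% of all 11325 genes. At an unadjusted p under 0.05 the members numbered 1 of 8 for SEMA6A against control (10.5% of all genes), 2 for SEMA3A against control (8.74%), 0 for SEMA6A+SEMA3A against control (4.11%), 2 for SEMA6A+SEMA3A against SEMA3A (11.2%) and 4 for SEMA6A+SEMA3A against SEMA6A (11.5%). There was 1 for the average SEMA6A effect (5.12%) and 1 for the average SEMA3A effect (3.34%). Groups did not overlap in normalized signal for 2 of 8 members in SEMA6A against control (12.1% of all genes), Klrc1 and Ncr1, both lower. In SEMA3A against control there were 3 (17.2%), Fcer1g, Klrg1 and Ncr1, all higher. In SEMA6A+SEMA3A against control there were 2 (15.1%), Klrd1 and Klre1, both higher. In SEMA6A+SEMA3A against SEMA3A there were 2 (21.1%), Fcer1g and Klrg1, both lower, and in SEMA6A+SEMA3A against SEMA6A there were 3 (14.1%), with Klrc1 and Klre1 higher and Klrb1f lower. The median log2 difference of the members was -0.09 in SEMA6A against control, 0.14 in SEMA3A against control and -0.02 in SEMA6A+SEMA3A against control, beside 0.02, 0.01 and 0.01 over all genes. The first 3 comparisons share the control arrays.

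The adaptors and early signalling genes that these receptors use were measured from a list of 14, of which 12 were tested and none passed in any of the 8 comparisons. For the interaction, 4 lay above 0 and 8 below, with a median of -0.05 beside 0.00 over all genes. Hcst, the DAP10 adaptor of NKG2D, read 1590 to 1937 on the SEMA6A arrays, 1620 to 1930 on the SEMA3A arrays, 1696 to 2095 on the SEMA6A+SEMA3A arrays and 1512 to 1871 on the control arrays, so all groups overlapped. Tyrobp, the DAP12 adaptor, was highest on SEMA6A replicate 2, at 5368, and SEMA3A replicate 1, at 4545, with 2270 to 3477 elsewhere. Ptpn6, the phosphatase SHP-1 that inhibitory receptors recruit, had the smallest interaction p of the list, at 0.91 ± 0.26 (SE; limma adjusted p = 0.20). It read 1127, 1214 and 1373 on the SEMA6A arrays, 1009, 1029 and 1771 on the SEMA3A arrays, 1556, 1799 and 1618 on the SEMA6A+SEMA3A arrays, and 1962, 1554 and 1657 on the control arrays. As with Klrc1, SEMA3A replicate 3 did not share the low values of its group.

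Of 24 other lectin genes of the NK complex, 5 were tested and none passed in any comparison, with 1 above 0 and 4 below for the interaction. Ly49 genes vary among strains in number and sequence, so their probe sets are uncertain here. Klra7 read 6181, 11718 and 8762 on the SEMA6A arrays, with 6188 to 7450 on the arrays of the other groups, and differed by 0.41 ± 0.17 on the log2 scale in SEMA6A against control (SE; adjusted p by limma = 0.48). Klrb1a, of the NKR-P1 family, was at 0.52 ± 0.24 in SEMA3A against control (limma adjusted p = 0.57). Of 18 genes for ligands, 6 were tested and none passed. Clec2i had the smallest interaction p among them, at 1.70 ± 0.47 (limma adjusted p = 0.20).

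Likeness over the 12 arrays was described by Pearson's r of normalized log2 signals, naming the 2 nearest genes of each tested member. Arrays that stand apart weigh on all of these values. Klrk1 was nearest to the proteasome genes Psma4 (r = 0.974) and Pomp (0.958), and Klrc1 to Csf2 (0.970) and Usp18 (0.965). Klrg1 was nearest to Gm36723 (0.986) and Mcf2l (0.981), Klrd1 to Calhm6 (0.905) and Pros1 (0.905), and Klre1 to Mrps12 (0.846) and Rpl39l (0.826). For Klrb1f these were Tpcn2 (0.940) and Ly9 (0.910), for Ncr1 Gm26910 (0.883) and Unc119 (0.845), and for Fcer1g 1110032A03Rik (0.935) and Bco1 (0.932).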

How the data were processed

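Splenocyte RNA of 12 samples was hybridised to single-colour arrays, 1 per sample. Deposited with each probe set was a linear intensity made by the authors (MAS5, named without a version among the submitters' processing notes). Each array had been scaled to a mean of 500.0 after trimming 2% at each end, so a shift shared by all genes cannot be seen. Precision is limited by there being 3 arrays per group.

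There were 45101 probe sets in all, 64 of them controls. Symbols came from the platform annotation, where 34945 probe sets name 1 gene, 932 several and 9160 are not listed. Signals were transformed as log2(signal + 16) and quantile normalized, dim probe sets were removed (24366 kept), and the brightest per gene entered a model of all 12 arrays in limma 3.58.1 (R 4.3.3), with 1 mean per group, with a trended prior and Benjamini-Hochberg adjustment over 11325 genes. Members without a probe set of their own past the filter were read from the same fit over 45037 probe sets. Averages and interaction used the same fit. Tables were joined in Python 3.11.15.

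The members, lists and tests were chosen with earlier results of these data known. The named genes are all 10 members, up to 4 genes of each other list by smallest p, and the 2 nearest genes by correlation. Hcst, Tyrobp, Id2, Cd8a, Klrb1b and the marker genes of other cells were named after their values were seen. Alternatives left out single arrays, weighted arrays, skipped quantile normalization, took pseudocounts of 1 and 64, changed the filter, the probe set choice or the prior trend, added a replicate block, or used only the arrays compared. On simulated data for SEMA6A against control with 11325 genes and 200 changed, the fit found 42.8% of the 1.5-fold and 75.3% of the 2-fold changes, and 5.06% of its calls were false. The simulated noise was independent between genes and arrays, unlike the spread shared by arrays here, and the interaction was not simulated. The median SE over all genes was 0.153 in that comparison, and the members ranged from 0.07 for Fcer1g to 0.55 for Klrk1. These shares therefore do not hold for each member.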

Additional observations from a re-analysis of the deposited data

How the results depend on the processing

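Over 8 comparisons the count of members called was 0 in the fits used. It stayed 0 in 178 of 181 combinations of a comparison with an alternative setting. Most settings give all 8 comparisons from the same fit, so these are not separate fits. The 3 exceptions were all in the interaction, so that comparison was less stable than the share over all 181 shows. It had 2 members under array weights and 0 to 2 when arrays were left out singly (2 without SEMA6A replicate 1 and 1 without SEMA3A replicate 3). Of 547 alternative values for 26 differences of single members, 536 kept their direction and their side of the threshold. Klrk1 turned in SEMA6A against control, to 0.40 under array weights and over -0.94 to 0.50 with single arrays left out, and in the interaction, to -0.41 under array weights and over -0.45 to 0.99. Ncr1 in the interaction lay between -0.54 and 0.10 with single arrays left out. The other 6 passed the threshold, all in the interaction. Over all genes array weights called 620 for SEMA6A+SEMA3A against SEMA3A, and leaving out SEMA6A replicate 1 called 503 for SEMA6A against control and 369 for SEMA6A+SEMA3A against SEMA6A, with 0 members each. The cause was not tested. The labels do not say whether arrays of the same replicate number belong together. Of 18 same-numbered pairs, 1 correlated above 0.1 in deviations from the group means (range -0.36 to 0.14), so no shared replicate effect was visible. Deviations within a group of 3 arrays depend on each other, so these correlations cannot settle whether the arrays were paired. Some differently numbered arrays correlated more. SEMA6A replicate 1 with SEMA3A replicate 3 was at 0.42, SEMA6A replicate 2 with SEMA3A replicate 1 at 0.33, and SEMA6A replicate 3 with SEMA3A replicate 2 at 0.27. The source of this was not tested. A block by replicate number does not model these pairs, and with it 0 members were called in every comparison. Dim probe sets limit what can be said of Klrc2, Klrb1f and Ncr1.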

Other observations

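Other receptors of NK and cytotoxic T cells were described from a list of 26, of which 18 were tested and none passed in any of the 8 comparisons. For the interaction 7 lay above 0 and 11 below, with a median log2 value of -0.23 beside 0.00 over all genes. Il18rap, a subunit of the interleukin-18 receptor, had the smallest p, at -1.05 ± 0.24 (SE; limma adjusted p = 0.20), and read 1412, 1854 and 2281 on the SEMA6A arrays, 2254, 2087 and 1687 on the SEMA3A arrays, 1193, 1428 and 1320 on the SEMA6A+SEMA3A arrays, and 1548, 1147 and 1290 on the control arrays. Fcgr3, an Fc receptor gene whose product signals through FcRγ, was at -1.44 ± 0.40 and Cd244a, the SLAM family receptor 2B4, at -0.80 ± 0.31 (limma adjusted p = 0.20 and 0.22). Crtam, a receptor of activated cytotoxic cells, was at 1.18 ± 0.46 (limma adjusted p = 0.23 over all genes).

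Of 15 regulators of NK and innate lymphocytes, 14 were tested and none passed. For the interaction 3 lay above 0 and 11 below. Prdm1, which encodes Blimp-1, was at -1.64 ± 0.49 and Runx3 at -0.67 ± 0.22 (SE; limma adjusted p = 0.20 each). Prdm1 read 724, 1272 and 1616 on the SEMA6A arrays, 1699, 1541 and 595.5 on the SEMA3A arrays, 788, 548.5 and 815 on the SEMA6A+SEMA3A arrays, and 590.6, 613.5 and 572 on the control arrays, so that SEMA6A replicate 1 and SEMA3A replicate 3 again lay apart from the other arrays of their groups. Among 14 T cell markers, 11 were tested and none passed. For the interaction 5 lay above 0 and 6 below, with a median of -0.03. Cd3e, of the T cell receptor complex, was at -0.59 ± 0.16 and Themis, a T cell signalling gene, at -0.56 ± 0.21 (limma adjusted p = 0.20 and 0.21). Cd5, a coreceptor gene, was at 1.09 ± 0.47 (limma adjusted p = 0.25). Cd6, another coreceptor gene, was at 2.33 ± 0.60 (limma adjusted p = 0.20) and read 149, 34.1 and 61.1 on the SEMA6A arrays, 54.0, 78.4 and 191.9 on the SEMA3A arrays, 215, 201 and 220.4 on the SEMA6A+SEMA3A arrays, and 199.1, 208 and 164 on the control arrays.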
